A study of Mus musculus with 15 samples.

Results

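The second heart field is a pool of mesoderm progenitors beside the early heart tube, and Isl1 encodes a LIM homeodomain transcription factor that marks many of them before they differentiate. An Isl1Cre allele recombined a Rosa26tdTomato reporter in these mice, so a cell in which Cre has acted keeps the red label, and so do its descendants, whether or not they still make Isl1. The titles mark the libraries only with the letters I and N, which were read as Isl1Cre and Nkx2-5Cre because the series' description names these alleles alone. The step followed here was from embryonic day E7.75, when the cardiac crescent forms, to E8.25, when the linear heart tube forms and begins to beat. It was covered by all cells with at least 1000 genes above 0 CPM (counts scaled to a fixed total per cell) in the 2 libraries of Isl1Cre E8.25 and the 2 of Isl1Cre E7.75. That left 94 and 94 cells in the E8.25 libraries, against 91 and 85 in the E7.75 libraries, which together were 364 of 376 cells of the step and of 1339 such cells in the series. The kept cell with the fewest genes had 1056 and 1039 genes in the E8.25 libraries, against 1021 and 1016 in the E7.75 libraries. The cell left out with the most genes had 745 and 689 in the E8.25 libraries, against 854 and 774 in the E7.75 libraries.

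The source of every library was labelled heart, and the labels give an embryo number of 2 for both E8.25 libraries and of 3 for both E7.75 libraries. The labels do not say whether a number counts pooled embryos or names 1 embryo, so the p-values below measure the spread between libraries that may share an embryo, and stage cannot be told apart from embryo or collection. Cells were obtained by sorting or by trypsin digestion alone and picked singly. The method is not tied to single libraries in the labels. Each cell was sequenced by a modified Smart-seq2 protocol that counts the 3′ ends of polyadenylated transcripts with molecular barcodes. The step of Nkx2-5Cre::Rosa26tdTomato cells over the same days, with 373 of 384 cells kept in 2 libraries a stage, was the one set against it and shares no library with it. Nkx2-5 encodes a homeodomain factor of differentiating and committed cardiac cells.

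Summed over their kept cells, the libraries held 10997442 and 18568887 counts at E8.25, against 12820393 and 14083228 counts at E7.75. The median cell had 6646 and 6971 genes in the E8.25 libraries, against 4889 and 5291 genes in the E7.75 libraries. With every cell thinned to 20000 counts, the medians were 4187 and 3999 genes at E8.25, against 3411 and 3458.5 genes at E7.75, so the E8.25 cells had more genes detected at equal depth. Libraries of 1 stage differed by more than counting noise (chi-square per degree of freedom 20.9 at E8.25 and 19.4 at E7.75), and no cell name was shared between libraries. The cardiomyocyte markers summed to 17660 and 17080 CPM in the E8.25 libraries, against 5052 and 5767 CPM in the E7.75 libraries. Cells with at least 4 endoderm markers at 20 CPM or more were 22 and 26 at E8.25, against 10 and 8 at E7.75. Cells with as many endothelial markers were 9 and 4 at E8.25, against 19 and 7 at E7.75. Blood markers reached that number in 0 cells, and Hba-x, Hbb-y and Gata1 were at 0 in all 4 libraries.

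A library's level of a gene was its mean CPM over kept cells, and the step was tested with limma on log2(mean CPM + 1) after TMM scaling, over 10670 genes and all 15 libraries of the series. At a Benjamini-Hochberg adjusted p of 0.05, 797 genes rose by E8.25 (7.47% of those tested) and 474 fell (4.44%), while the median change of all genes was 0.018 on the log2 scale. Counts of called list members below are to be read beside these shares, which 1 called member of a short list can be near. Changes are given as log2 values, E8.25 minus E7.75, with their standard error. The added 1 understates the change of genes at a few CPM. Among called genes, 604 rose and 209 fell by more than 2-fold, and 55 rose and 5 fell by more than 8-fold, so the rises were more often large. The direction split depended on the scale. It was 962 higher and 340 lower without TMM scaling, 2153 and 291 with cells averaged on the log scale (median change of all genes 0.376), and 396 and 141 with cells thinned to 5000 counts, against 797 and 474. Without 1 library of the step the calls numbered 644 (E8.25 library 1), 706 (E8.25 library 2), 745 (E7.75 library 1) and 684 (E7.75 library 2). Below, a call lost without a library means with that library alone left out. Of 111 named genes that were called, 40 lost the call without at least 1 of the 4 libraries, and each of these that is named with its change below is given with its p. Of these 111 genes, 7 fell below the filter without at least 1 of the 4 libraries and could not be tested there.

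**Figure D1:**
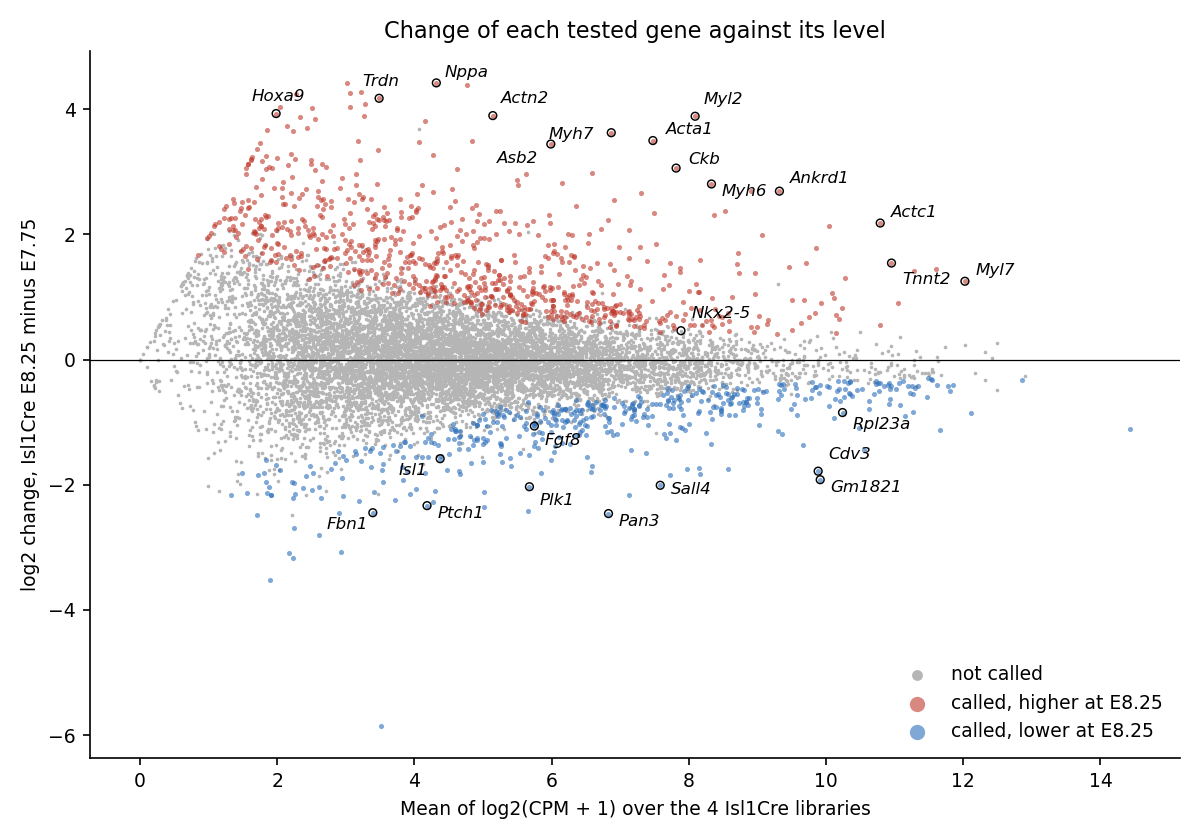
Log2 change of each of 10670 tested genes (vertical axis, E8.25 minus E7.75 in Isl1Cre cells) against its mean log2 level over the 4 libraries (horizontal axis), with genes called by limma in colour. Past 8-fold (a value of 3) lie 55 called rises and 5 called falls, and contractile genes such as Myh7 and Acta1 lie among the highest points.

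Genes of the contractile apparatus made up much of the upper end of the step. Muscle contracts where myosin thick filaments pull on actin thin filaments anchored at Z-discs, and each filament has its own genes. Of 12 thick-filament genes tested, 11 rose and 0 fell (median change 2.30, against 0.018 over all genes). Myl2, the ventricular regulatory myosin light chain, had 949.7 and 1230 CPM in the E8.25 libraries, against 52.96 and 86.8 CPM in the E7.75 libraries (3.89 ± 0.18, limma adjusted p = 4.9e-11). Myh7, the slow β-myosin heavy chain (chr14:54970684-54994626 in mm10), had 367.9 and 484.3 CPM in the E8.25 libraries, against 30.3 and 32.4 CPM in the E7.75 libraries (3.63 ± 0.16, limma adjusted p = 2.6e-11). Its neighbour Myh6, the fast α-myosin heavy chain (chr14:54941921-54966927), had 846.9 and 905.9 CPM in the E8.25 libraries, against 99.4 and 138.0 CPM in the E7.75 libraries (2.81 ± 0.17, limma adjusted p = 1.5e-09). All 3 genes were low in each E7.75 library and high in each E8.25 library. The heavy-chain genes lie side by side and are alike in sequence, so reads shared between them cannot be told apart here. Myl3, the essential light chain, rose by 2.70 and the myosin-binding Mybphl, with 1 count in all E7.75 cells, also rose.

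Of 14 thin-filament genes, 11 rose and 2 fell (median 1.66). Cardiac Actc1 had 4436 and 3402 CPM in the E8.25 libraries, against 776.1 and 835.6 CPM in the E7.75 libraries (2.18 ± 0.16, limma adjusted p = 1.7e-08). Skeletal Acta1 had 618.1 and 614.1 CPM in the E8.25 libraries, against 35.99 and 70.4 CPM in the E7.75 libraries (3.501 ± 0.21, limma adjusted p = 1.3e-09). Smooth muscle Acta2 was also called (change 2.13), and the actin genes are alike enough that reads could have been split among them. The inhibitory troponin of the mature heart, Tnni3, had 134.8 and 110.1 CPM in the E8.25 libraries, against 19.6 and 12.6 CPM in the E7.75 libraries (2.79 ± 0.20, limma adjusted p = 1.1e-08). Tnnt2, which ties troponin to tropomyosin, had 3372 and 3607 CPM in the E8.25 libraries, against 967.0 and 1313 CPM in the E7.75 libraries (1.54 ± 0.12, limma adjusted p = 3.8e-08), so it was already well detected at E7.75. The 2 falls were tropomyosin genes known for cytoskeletal forms. Tpm3 had 420.5 and 406.6 CPM in the E8.25 libraries, against 698.9 and 653.9 CPM in the E7.75 libraries (-0.79 ± 0.16, limma adjusted p = 0.002), and Tpm4 changed by -0.48. Of 24 Z-disc and assembly genes tested, 22 rose and 0 fell (median 1.82). Actn2, the α-actinin that crosslinks actin at the Z-disc (chr13:12269426-12340760 in mm10), had 137.2 and 141.6 CPM in the E8.25 libraries, against 8.07 and 7.73 CPM in the E7.75 libraries (3.90 ± 0.21, limma adjusted p = 2.9e-10). Titin (Ttn), the spring of the sarcomere, had 1267 and 1713 CPM in the E8.25 libraries, against 450.4 and 498.3 CPM in the E7.75 libraries (1.55 ± 0.20, limma adjusted p = 3.6e-05). Myom2, an M-band gene, was at 0 in all 4 libraries. Without the cells that held endothelial or endoderm markers, the thick-filament, thin-filament and Z-disc lists again had 11, 11 and 22 rises.

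Start-site flanks are shown for contractile genes whose promoters hold the box bound by serum response factor (CArG box) or the site bound by MEF2 factors, which are known regulators of muscle genes. Each run is the 200 bases before the RefSeq transcript start, 5′ to 3′ on the gene's strand, with the matched motif in capitals (CArG box in the first 4, MEF2 site in the last 2).
Actc1, GRCm38.p6 chr2:114052876-114053075, minus strand: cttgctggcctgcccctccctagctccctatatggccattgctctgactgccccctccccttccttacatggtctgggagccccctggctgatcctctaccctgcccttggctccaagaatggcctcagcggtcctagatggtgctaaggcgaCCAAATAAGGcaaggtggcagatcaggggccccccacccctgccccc
Acta1, GRCm38.p6 chr8:123894776-123894975, minus strand: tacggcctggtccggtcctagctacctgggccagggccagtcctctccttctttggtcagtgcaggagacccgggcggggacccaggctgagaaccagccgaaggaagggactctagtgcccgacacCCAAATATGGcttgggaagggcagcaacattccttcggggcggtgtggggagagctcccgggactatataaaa
Myl3, GRCm38.p6 chr9:110763478-110763677, plus strand: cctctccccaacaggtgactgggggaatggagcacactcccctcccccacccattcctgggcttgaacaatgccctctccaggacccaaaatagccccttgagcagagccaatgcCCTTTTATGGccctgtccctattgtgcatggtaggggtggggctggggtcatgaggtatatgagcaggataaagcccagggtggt
Myl7, GRCm38.p6 chr11:5898783-5898982, minus strand: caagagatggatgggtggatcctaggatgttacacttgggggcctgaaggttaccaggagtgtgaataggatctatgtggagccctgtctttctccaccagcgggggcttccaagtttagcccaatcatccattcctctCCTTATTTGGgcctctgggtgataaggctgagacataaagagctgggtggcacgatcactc
Mybpc3, GRCm38.p6 chr2:91117944-91118143, plus strand: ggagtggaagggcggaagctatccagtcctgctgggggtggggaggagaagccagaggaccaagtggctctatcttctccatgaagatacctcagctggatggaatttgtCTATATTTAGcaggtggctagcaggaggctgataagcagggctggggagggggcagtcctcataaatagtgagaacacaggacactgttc
Ttn, GRCm38.p6 chr2:76982548-76982747, minus strand: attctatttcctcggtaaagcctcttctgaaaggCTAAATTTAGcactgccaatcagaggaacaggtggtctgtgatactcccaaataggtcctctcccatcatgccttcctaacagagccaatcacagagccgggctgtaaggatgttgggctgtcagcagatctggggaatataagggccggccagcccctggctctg

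Motifs were searched on both strands of the 300-base RefSeq promoter (GRCm38.p6, from 250 bases before the start to 50 after it), and the 2 motifs can overlap. The CArG box was in 8 of the 46 contractile genes that had a promoter (17.4%, of 53 listed), against 1.81% of all 27025 genes with one. The MEF2 site was in 5 of 46 (10.9%), against 2.16% of all. Of these 5, Myoz2 was at 0 in all 4 libraries and Xirp2 lay below the filter, so neither was tested in the step. Of the tested genes that had a promoter, 1.76% held the CArG box and 1.76% the MEF2 site. Among genes called in the step, the CArG box was in 4.52% of those that rose and 1.41% of those that fell, and the MEF2 site was in 5.17% of those that rose and 0.847% of those that fell. The genes that rose include contractile genes counted above, such as Actc1 and Acta1 with a CArG box. The shares among rises are therefore not independent of the contractile shares. The start-site element TATAAA was in 9 of the 46 (19.6%), against 15.7% of all and 8.52% of the tested genes that had a promoter. A match describes letters in the window and is not evidence of binding.

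Genes that release, store and clear the calcium that triggers each beat rose in 11 of 17 cases tested, with 0 falls (median 1.62). Trdn, which anchors the calcium store to its release channel, had 42.6 and 53.6 CPM in the E8.25 libraries, against 1.97 and 1.23 CPM in the E7.75 libraries (4.18 ± 0.56, limma adjusted p = 4.0e-05). The calcium-binding store protein Casq1 had 40.3 and 33.7 CPM in the E8.25 libraries, against 1.21 and 1.66 CPM in the E7.75 libraries (3.90 ± 0.34, limma adjusted p = 1.6e-07). Slc8a1, the sodium-calcium exchanger known to be needed for the embryonic heartbeat, had 198.6 and 252.0 CPM in the E8.25 libraries, against 46.3 and 51.7 CPM in the E7.75 libraries (2.09 ± 0.20, limma adjusted p = 7.9e-07). These 3 genes were low at E7.75 in both libraries and several-fold higher in both E8.25 libraries. The release channel Ryr2 had 108.6 and 145.8 CPM in the E8.25 libraries, against 62.7 and 84.5 CPM in the E7.75 libraries (0.70 ± 0.20, limma adjusted p = 0.031), and its call was lost without E7.75 library 1 (adjusted p = 0.28) or E8.25 library 2 (adjusted p = 0.29). The reuptake pump Atp2a2 was not called, with 269.9 and 227.9 CPM in the E8.25 libraries, against 176.4 and 185.8 CPM in the E7.75 libraries (0.37 ± 0.20, limma adjusted p = 0.27). Of 10 membrane channel and connexin genes tested, 3 rose and 0 fell, among them the sodium pump subunit Atp1b1 (2.47) and the potassium channel Kcnj5 (2.41). Hcn4, the pacemaker channel that also marks early cardiac precursors, had 0.624 and 0.178 CPM in the E8.25 libraries, against 1.798 and 3.75 CPM in the E7.75 libraries and was not called (-1.44 ± 0.72, limma adjusted p = 0.23). Nppa, the natriuretic peptide of working chamber muscle (chr4:148000722-148002079), had 121.3 and 72.7 CPM in the E8.25 libraries, against 3.65 and 2.80 CPM in the E7.75 libraries (4.42 ± 0.29, limma adjusted p = 4.4e-09).

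In a library mean, more expressing cells and more RNA per cell cannot be told apart, so the 53 contractile genes were also summed in each cell. The median sum was 44591 and 43141 CPM in the E8.25 libraries, against 5856 and 6961 CPM in the E7.75 libraries. The ranges of single cells overlapped. Cells over 30000 CPM were 57 of 94 (60.6%) in each of the E8.25 libraries, against 10 of 91 (10.99%) and 12 of 85 (14.1%) in the E7.75 libraries. At or below 10000 CPM lay 16 cells (17.0%) and 12 cells (12.8%) at E8.25, against 52 (57.1%) and 51 (60.0%) at E7.75. The highest cell had 91779 and 107264 CPM in the E8.25 libraries, against 52758 and 51186 CPM in the E7.75 libraries. Some E7.75 cells thus had sums above the E8.25 medians, and a minority at E8.25 had low ones. With cells thinned to 5000 counts, Actn2 had a count in 39.8% (95% exact interval 29.5 to 50.8) and 39.1% (95% exact interval 29.1 to 49.9) of cells in the E8.25 libraries, against 5.75% (95% exact interval 1.89 to 12.9) and 1.21% (95% exact interval 0.0305 to 6.53) in the E7.75 libraries. Myh6 had a count in 79.5% (95% exact interval 69.6 to 87.4) and 82.6% (95% exact interval 73.3 to 89.7) of cells in the E8.25 libraries, against 21.8% (95% exact interval 13.7 to 32) and 28.9% (95% exact interval 19.5 to 39.9) in the E7.75 libraries. For these genes the share of cells with a count was higher in each E8.25 library than in either E7.75 library.

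**Figure D2:**
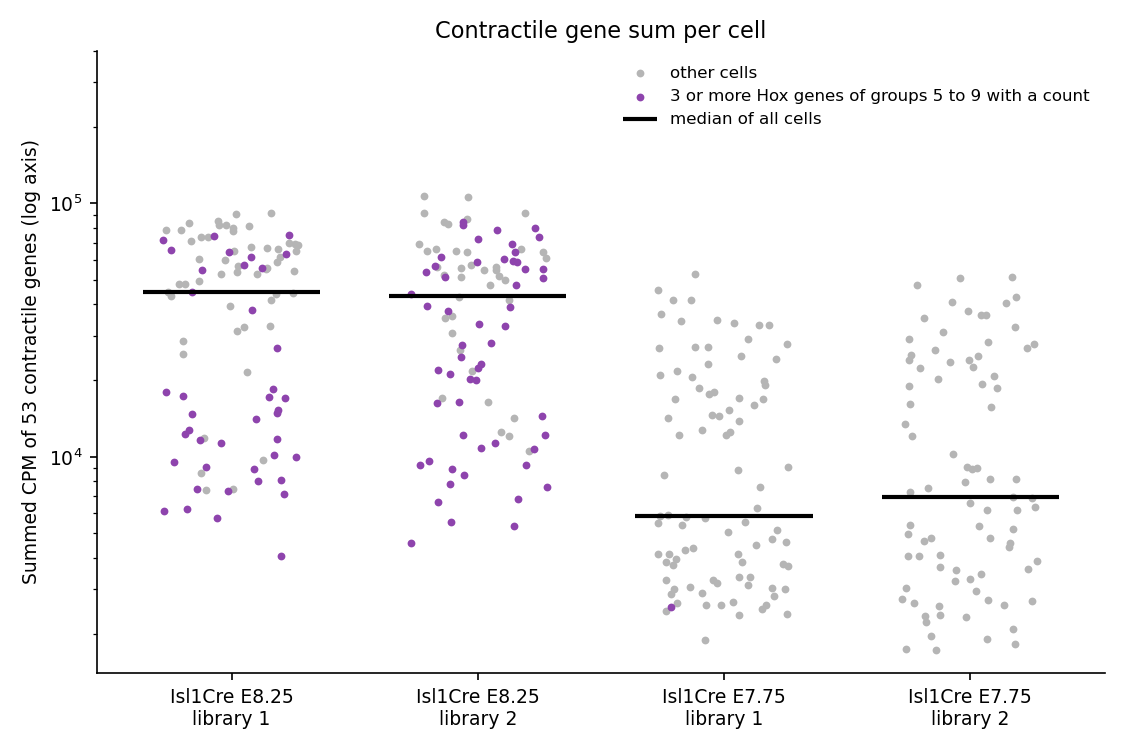
Summed CPM of the 53 contractile genes in each kept cell (logarithmic axis), 1 column of points per library with E8.25 left of E7.75. The E8.25 medians of 44591 and 43141 CPM lie above the E7.75 medians of 5856 and 6961 CPM, while single cells overlap.

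The transcription factors that direct heart formation were called in both directions, with 4 of 26 higher and 3 lower (median 0.15). The split was 7 higher and 1 lower with cells averaged on the log scale, and 2 and 0 with cells thinned to 5000 counts. Hopx, a homeodomain protein of cardiac commitment, had 27.6 and 35.97 CPM in the E8.25 libraries, against 5.45 and 4.63 CPM in the E7.75 libraries (2.36 ± 0.30, limma adjusted p = 2.5e-05). The ventricular repressors Hey2 (1.76) and Irx4 (1.66) rose as well. Mef2c, a muscle regulator active early in the second heart field, had 184.1 and 187.3 CPM in the E8.25 libraries, against 278.7 and 326.6 CPM in the E7.75 libraries (-0.78 ± 0.19, limma adjusted p = 0.0088). Gata6 (-0.80), a zinc finger factor of heart and endoderm, and Irx5 (-2.18) also fell. Most core factors did not pass the test. Nkx2-5 had 276.6 and 293.7 CPM in the E8.25 libraries, against 173.6 and 218.1 CPM in the E7.75 libraries (0.46 ± 0.16, limma adjusted p = 0.066). Hand1, a factor of the left ventricle and outer curvature, had 36.7 and 22.7 CPM in the E8.25 libraries, against 13.4 and 14.5 CPM in the E7.75 libraries (0.92 ± 0.36, limma adjusted p = 0.11). Gata4 (-0.14, adjusted p = 0.78), Tbx5 (0.18, adjusted p = 0.72) and Hand2 (-0.17, adjusted p = 0.74) were close to 0 in limma, with standard errors of 0.25. Averaging cells on the log scale moved Gata4 to 0.92 and Hand2 to 0.73, and Mef2c to -0.10, which was not called there. The calls of Hey2 (adjusted p up to 0.10), Irx5 (up to 0.15) and Mef2c (up to 0.10) were each lost without at least 1 library, among them E8.25 library 1 for all 3.

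Isl1 and some other genes of the second heart field were called lower, and the balance of rises and falls depended on the processing. Of 13 anterior genes tested, which mark progenitors of the outflow tract and right ventricle, 0 rose and 4 fell (median -0.57). Called higher and lower were 1 and 2 with log averaging or edgeR, 2 and 2 with DESeq2, and 0 and 0 of 12 with thinned cells. Isl1 itself (chr13:116298281-116309689) had 10.1 and 12.7 CPM in the E8.25 libraries, against 27.8 and 41.3 CPM in the E7.75 libraries (-1.58 ± 0.40, limma adjusted p = 0.013), so its transcript was lower at the later stage in cells labelled through Isl1Cre. Isl1 had a count in 13.4% (95% exact interval 6.89 to 22.7) and 11.6% (95% exact interval 5.72 to 20.4) of cells in the E8.25 libraries, against 30.9% (95% exact interval 21.3 to 42) and 35.4% (95% exact interval 25.1 to 46.7) in the E7.75 libraries, with cells thinned to 20000 counts. At E8.25 and this depth, the cells with an Isl1 count had a median contractile sum of 17335 and 16752 CPM, against 44633 and 51106 CPM in cells without one. These medians rest on only 11 and 10 cells with a count, against 71 and 76 without. At E7.75 those medians were 4939 and 6961 CPM with a count, against 5649 and 6593 CPM without. The Isl1 shares depended on depth. At 5000 counts they were 4.5% and 5.4% at E8.25, against 9.2% and 14.5% at E7.75, with overlapping exact intervals. Without thinning they were 27.7% and 41.5% at E8.25, against 40.7% and 45.9% at E7.75, so the libraries of the stages overlapped. Fgf8, a growth factor of the anterior field (chr19:45736798-45742915), had 29.02 and 47.9 CPM in the E8.25 libraries, against 64.4 and 86.05 CPM in the E7.75 libraries (-1.06 ± 0.29, limma adjusted p = 0.022). The forkhead factor Foxc1 fell by 2.14 on the log2 scale, as did Mef2c by 0.78. Tbx1, a T-box factor of the pharyngeal mesoderm, had 5.70 and 2.65 CPM in the E8.25 libraries, against 9.17 and 7.08 CPM in the E7.75 libraries and was not called (adjusted p = 0.29), nor was Fgf10 (-0.37, adjusted p = 0.76). Of 16 posterior genes, 1 rose and 4 fell (median -0.22), against 4 higher and 2 lower with log averaging and 1 and 0 with thinned cells. Wnt2, a ligand of the inflow region, had 189.9 and 140.8 CPM in the E8.25 libraries, against 62.2 and 71.3 CPM in the E7.75 libraries (1.20 ± 0.25, limma adjusted p = 0.0028). Aldh1a2, which makes retinoic acid, had 15.3 and 4.004 CPM in the E8.25 libraries, against 44.8 and 36.3 CPM in the E7.75 libraries (-2.28 ± 0.62, limma adjusted p = 0.02), and Hoxb1 (-1.72), Meis1 (-0.93) and Isl1 fell too. Isl1 lost its call without E7.75 library 2 (adjusted p = 0.14) or E8.25 library 1 (adjusted p = 0.12), and Fgf8 without the same libraries (adjusted p = 0.19 and 0.28). The Isl1 fall was not called with edgeR (adjusted p = 0.10) or DESeq2 (adjusted p = 0.060), and with cells thinned to 5000 counts the Isl1, Fgf8 and Mef2c falls were not called (adjusted p = 0.30, 0.27 and 0.30). With log averaging, Fgf8 was -0.35 (limma adjusted p = 0.61) and Mef2c -0.10 (limma adjusted p = 0.83), neither called. Without thinning, Fgf8 had a count in 58.5% and 79.8% of E8.25 cells, against 53.85% and 65.9% of E7.75 cells. Foxc1 (adjusted p up to 0.26), Aldh1a2 (up to 0.28) and Wnt2 (0.063 without E8.25 library 1) also depended on single libraries. Hoxb1 lost its call without any 1 of the 4 (up to 0.29).

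**Figure D3:**
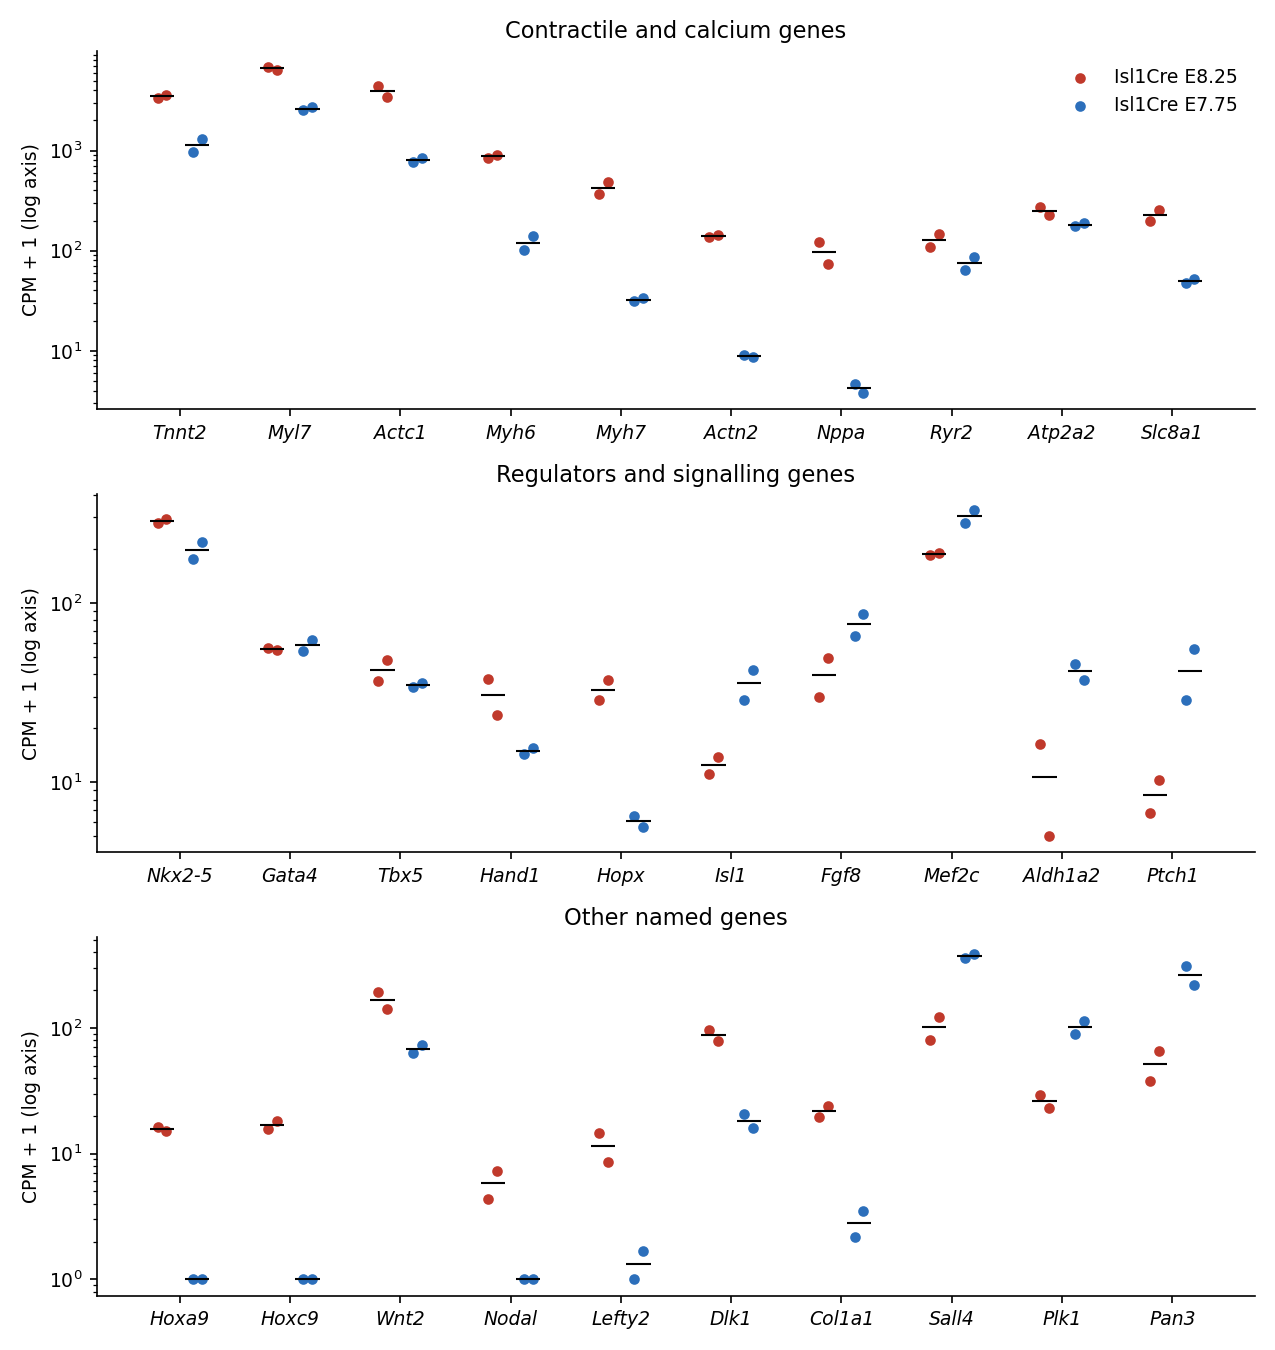
Mean CPM + 1 (logarithmic axis) of 30 named genes in the 2 Isl1Cre E8.25 libraries and the 2 Isl1Cre E7.75 libraries, 1 point per library, with E8.25 left of E7.75 and a bar at the mean of each stage. Contractile genes are higher in both E8.25 libraries, and Isl1 and Fgf8 are lower in both.

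Signals that pattern the early embryo moved in few members of each list. Over all tested genes 7.47% rose and 4.44% fell, so 1 called member of a list this short is no result about the list. In the Nodal and left-right list, 4 of 10 rose and 1 fell (median 0.34), against 2 and 0 with thinned cells. Nodal, the TGF-β ligand made on the left side (chr10:61417972-61425338), had 3.39 and 6.23 CPM in the E8.25 libraries, against 0 and 0 CPM in the E7.75 libraries (2.46 ± 0.55, limma adjusted p = 0.0055). Summed over cells it had 187 counts at E8.25, against 0 at E7.75, at least 56.7-fold higher per summed depth against a floor of 3 counts over both E7.75 libraries. Its feedback antagonist Lefty2 (chr1:180893108-180899103) had 13.6 and 7.52 CPM in the E8.25 libraries, against 0 and 0.67 CPM in the E7.75 libraries (3.07 ± 0.59, limma adjusted p = 0.0017), on 6 counts at E7.75. The co-receptor Tdgf1 had 280.0 and 312.4 CPM in the E8.25 libraries, against 80.1 and 108.0 CPM in the E7.75 libraries (1.57 ± 0.29, limma adjusted p = 0.0011), while its relative Cfc1 fell by 1.16. In the hedgehog list 0 of 9 rose and 3 fell (median -0.61), against 2 higher and 2 lower with log averaging, 0 and 1 with edgeR and 0 and 0 of 8 with thinned cells. The receptor Ptch1, itself a target of the pathway, had 5.73 and 9.31 CPM in the E8.25 libraries, against 27.6 and 54.1 CPM in the E7.75 libraries (-2.33 ± 0.53, limma adjusted p = 0.0059), and the effectors Gli1 (-1.85) and Gli3 (-1.34) fell too. Of 18 Wnt genes 4 rose and 0 fell (median -0.01), with the non-canonical ligand Wnt5a at 60.6 and 56.2 CPM in the E8.25 libraries, against 23.4 and 21.02 CPM in the E7.75 libraries (1.27 ± 0.27, limma adjusted p = 0.0033), and Dkk3 (2.25), Wnt5b (2.12) and Wnt2 beside it. Of 14 FGF genes, the pathway's inhibitor Spry4 (1.45) and its target Etv4 (1.34, adjusted p = 0.0498) rose and Fgf8 fell. Of 17 BMP genes, 0 were called by limma, edgeR or DESeq2 (median -0.03). With log averaging 1 was higher and 0 lower (median 0.40, against 0.376 over all genes). At an unadjusted p of 0.05, limma had 2 higher and 1 lower, and edgeR and DESeq2 3 higher and 1 lower. In the retinoic acid list 0 of 11 rose and 1 fell (Aldh1a2), against 3 higher and 0 lower with log averaging and 0 and 0 with thinned cells, so its direction depended on the scale. With thinned cells 0 FGF genes and 0 Notch genes were called, and with edgeR 0 Notch genes were higher and 1 was lower. In limma, in the Notch list, 1 of 9 rose (its target Hey2) and 0 fell.

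Many of these signalling calls rested on low levels and on single libraries. Nodal lost its call without E8.25 library 2 (adjusted p = 0.082), Ptch1 without E7.75 library 2 or E8.25 library 1 (up to 0.10), and Gli1 without either E8.25 library (up to 0.15). Gli3 and Etv4 lost theirs without any 1 of the 4 (up to 0.23 and 0.27). Dkk3 (up to 0.23), Wnt5b (up to 0.18) and Spry4 (up to 0.31) lost theirs on leaving out any of 2 or 3 of them. With edgeR, Wnt5a, Etv4, Wnt5b, Gli1 and Gli3 were not called either (adjusted p = 0.058, 0.080, 0.17, 0.21 and 0.20). With DESeq2, Wnt5b, Gli1 and Gli3 were not called (adjusted p = 0.12, 0.145 and 0.15).

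Hox genes encode the homeodomain factors that give mesoderm its position along the trunk, the later-numbered ones more posterior. Of 15 Hox genes that passed the filter, from 29 in the files, 9 rose and 1 fell (median 2.43). Hoxa9 (chr6:52223100-52231089) had 15.2 and 14.2 CPM in the E8.25 libraries, against 0 and 0 CPM in the E7.75 libraries (3.93 ± 0.62, limma adjusted p = 2.5e-04). Summed over cells it had 585 counts at E8.25, against 0 at E7.75, at least 177-fold higher per summed depth against the floor of 3 counts over both E7.75 libraries. Summed counts weight deeply sequenced cells more than the mean CPM does. Hoxc9 (chr15:102976439-102985099) had 14.6 and 17.1 CPM in the E8.25 libraries, against 0 and 0 CPM in the E7.75 libraries (4.03 ± 0.61, limma adjusted p = 1.6e-04), and its 559 summed counts at E8.25 were at least 170-fold higher on the same basis. Hoxa7, Hoxb7 and Hoxc8 were also at 0 in both E7.75 libraries, with bounds from summed counts of at least 101-fold, 120-fold and 84.3-fold, and Hoxb6 had 26.5 and 22.7 CPM in the E8.25 libraries, against 4.53 and 0.749 CPM in the E7.75 libraries. The anterior gene Hoxb1 was the fall, with 6.85 and 3.37 CPM in the E8.25 libraries, against 16.8 and 17.9 CPM in the E7.75 libraries. Cdx4, a caudal factor that acts on Hox genes, had 13.6 and 10.6 CPM in the E8.25 libraries, against 0 and 0 CPM in the E7.75 libraries. Its 587 summed counts at E8.25 were at least 178-fold higher on the same basis, and it was the 1 rise among 8 tested genes of gastrulation mesoderm, where 0 fell. DESeq2 called 1 of the 15 Hox genes higher and 1 lower, and edgeR 6 and 1, and with cells thinned to 5000 counts 3 of 11 were higher and 0 lower. With DESeq2 Hoxa7, Hoxa9, Hoxc9 and Cdx4 were not called (adjusted p 0.24 to 0.30). Without either E8.25 library these 4 genes fell below the filter, so their calls have no check by leaving out such a library. Hoxa7, Hoxa9 and Hoxc9 thus entered the Hox list only through their E8.25 levels and could hardly have fallen. The number of rises in the Hox list and its median were therefore partly set by the filter. The same holds for Cdx4 in its list.

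Cells with at least 3 of 15 listed trunk and posterior Hox genes were 20 of 82 (24.4%, 95% exact interval 15.6 to 35.1) and 18 of 86 (20.9%, 12.9 to 31.0) at E8.25 after thinning to 20000 counts a cell. At E7.75 they were 0 of 84 and 0 of 82, with exact upper limits of 4.30% and 4.40%. Without thinning they were 41 of 94 and 55 of 94 at E8.25, against 1 of 91 and 0 of 85 at E7.75. In the thinned data, these E8.25 cells had a median contractile sum of 9776 and 10140 CPM, against 55623 and 54392 CPM in the other E8.25 cells. Without thinning, the medians were 14703 and 27723 CPM in the cells with 3 Hox genes, against 56554 and 54411 CPM in the other E8.25 cells. The median was lower in the cells with several Hox genes in both libraries and at both depths, by less without thinning. Of the 41 and 55 cells counted without thinning, 13 and 19 held at least 4 endoderm markers, against 22 and 26 such cells in all. Without all marker cells, 6 of 12 Hox genes tested rose and 2 fell (median 2.01). Isl1 averaged 17.3 and 15.3 CPM in the cells with 3 Hox genes, against 4.48 and 9.11 CPM in the other E8.25 cells. Epiblast genes did not move as 1 block, with 1 of 9 higher (Tdgf1) and 2 lower. Sall4, a pluripotency-associated zinc finger factor, had 78.4 and 121.3 CPM in the E8.25 libraries, against 357.1 and 388.2 CPM in the E7.75 libraries (-2.01 ± 0.21, limma adjusted p = 2.1e-06). Sall4 had a count in 35.2% (95% exact interval 25.3 to 46.1) and 31.5% (95% exact interval 22.2 to 42) of cells in the E8.25 libraries, against 66.7% (95% exact interval 55.8 to 76.4) and 85.5% (95% exact interval 76.1 to 92.3) in the E7.75 libraries after thinning to 5000 counts. Trim71, a let-7 target of developmental timing, fell by 1.23 (lost without E7.75 library 1, adjusted p = 0.054, or E8.25 library 1, 0.083). Mesp1, the first factor of cardiac mesoderm, lay below the filter with 0.284 and 0 CPM in the E8.25 libraries, against 1.36 and 5.98 CPM in the E7.75 libraries, and Pdgfra (-0.93, adjusted p = 0.2) and Kdr (-0.94, adjusted p = 0.26) were not called.

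Genes of energy supply rose in part. In the glycolysis and hypoxia list 14 of 25 rose and 0 fell (median 0.74). Pfkp, a phosphofructokinase at the committed step, had 60.8 and 71.6 CPM in the E8.25 libraries, against 15.9 and 10.1 CPM in the E7.75 libraries (2.21 ± 0.23, limma adjusted p = 1.9e-06). The muscle phosphoglycerate mutase Pgam2 had 161.5 and 160.7 CPM in the E8.25 libraries, against 36.6 and 38.3 CPM in the E7.75 libraries (1.99 ± 0.22, limma adjusted p = 5.0e-06). Hexokinase Hk1 rose by 1.86 and aldolase Aldoc by 2.20, and the Aldoc call was lost without any of 3 libraries (adjusted p up to 0.18). The abundant enzymes Ldha (0.13), Pkm (0.04) and Gapdh (-0.17) were not called, with adjusted p of 0.42, 0.87 and 0.65. Of 15 fat, ketone and creatine genes 5 rose and 0 fell, against 11 and 0 with log averaging. Creatine kinase Ckb, which buffers ATP, had 657.6 and 680.3 CPM in the E8.25 libraries, against 63.9 and 87.2 CPM in the E7.75 libraries (3.06 ± 0.17, limma adjusted p = 2.9e-10). Ppargc1a, the coactivator of mitochondrial biogenesis, had 20.3 and 9.93 CPM in the E8.25 libraries, against 1.48 and 1.34 CPM in the E7.75 libraries (2.60 ± 0.41, limma adjusted p = 2.2e-04), and the fatty acid carrier Fabp3 had 85.4 and 103.7 CPM in the E8.25 libraries, against 16.7 and 27.4 CPM in the E7.75 libraries (2.00 ± 0.19, limma adjusted p = 6.3e-07). Of 82 oxidative phosphorylation genes 12 rose and 1 fell (median 0.17), against 7.47% of all genes higher and 4.44% lower. The rises numbered 7 with edgeR or DESeq2, 8 with thinned cells, 18 with log averaging and 23 without TMM scaling, so how far they exceeded the share of all genes depended on the processing. Its rises were led by the heart and muscle forms of cytochrome oxidase subunits. Cox6a2 had 101.1 and 94.2 CPM in the E8.25 libraries, against 4.72 and 11.1 CPM in the E7.75 libraries (3.49 ± 0.26, limma adjusted p = 1.7e-08), and Cox7a1 had 105.8 and 134.9 CPM in the E8.25 libraries, against 33.5 and 34.5 CPM in the E7.75 libraries (1.70 ± 0.20, limma adjusted p = 7.4e-06).

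Many ribosomal protein genes fell. Of 74 tested, 39 fell and 0 rose (median -0.33), against 4.44% of all genes falling, and their sum was 152200 and 155000 CPM at E8.25, against 178300 and 177300 CPM at E7.75. Rpl23a of the large subunit had 965.4 and 893.4 CPM in the E8.25 libraries, against 1622 and 1525 CPM in the E7.75 libraries (-0.85 ± 0.12, limma adjusted p = 9.2e-05), and Rpl29 (-0.78) and Rps13 (-0.63) fell too. Rps15a was also called lower (-0.67), but together with its near-identical copy Rps15a-ps6 it summed to 2553 and 2242 CPM at E8.25, against 2255 and 2138 CPM at E7.75, so its fall is uncertain. The falls numbered 26 without TMM scaling and 17 with cells thinned to 5000 counts, and 0 rose in both. Rn45s, the ribosomal RNA precursor, named after its values were seen, had 15150 and 15990 CPM in the E8.25 libraries, against 32110 and 30820 CPM in the E7.75 libraries (-1.10 ± 0.22, limma adjusted p = 0.0019). It was not called without the filter on low values (adjusted p = 0.075). Its part in the ribosomal protein result was not tested. The protocol counts polyadenylated transcripts, and whether these reads track the level of the precursor was not tested either. Of 31 DNA replication genes, 2 were higher and 2 lower with log averaging, and 0 and 0 with thinned cells. In limma their share lower was near that of all genes (4.44%), with 2 falls and 0 rises (median -0.25). They were the nucleotide enzymes Dut (-0.61) and Tyms (-0.77), each call lost without 2 or 3 of the 4 libraries (adjusted p up to 0.075 and 0.11). Of 30 mitosis genes 3 fell and 0 rose (median -0.27), against 4.44% of all genes falling, and 1 fell with edgeR, DESeq2 or thinned cells. Plk1, the kinase that drives entry into mitosis, had 28.3 and 22.2 CPM in the E8.25 libraries, against 87.6 and 112.9 CPM in the E7.75 libraries (-2.03 ± 0.27, limma adjusted p = 3.3e-05). Plk1 had a count in 6.82% (95% exact interval 2.54 to 14.2) and 10.9% (95% exact interval 5.34 to 19.1) of cells in the E8.25 libraries, against 34.5% (95% exact interval 24.6 to 45.4) and 39.8% (95% exact interval 29.2 to 51.1) in the E7.75 libraries after thinning to 5000 counts. The Plk1 shares depended on depth. At 20000 counts they were 43.9% and 24.4% at E8.25, against 58.3% and 69.5% at E7.75, and some exact intervals overlapped. Without thinning they were 66.0% and 64.9% at E8.25, against 73.6% and 85.9% at E7.75. Tpx2 (-0.91) and Mki67 (-0.73) fell by less, and both calls were lost without at least 2 libraries (adjusted p up to 0.12 and 0.16).

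Of 28 extracellular matrix genes 7 rose and 2 fell (median 0.31), against 4 and 1 with thinned cells. Fibrillar collagen Col1a1 had 18.5 and 22.97 CPM in the E8.25 libraries, against 1.18 and 2.48 CPM in the E7.75 libraries (2.91 ± 0.43, limma adjusted p = 1.2e-04), and Col3a1 (2.02) and Col1a2 (1.51) rose with single libraries deciding the call (adjusted p up to 0.26 and 0.070). Fibrillin 1, Fbn1, had 3.18 and 4.12 CPM in the E8.25 libraries, against 23.3 and 22.5 CPM in the E7.75 libraries (-2.45 ± 0.38, limma adjusted p = 2.3e-04). Of 20 imprinted genes 6 rose and 1 fell (median 0.37), against 2 and 1 with thinned cells. The growth brake Cdkn1c had 693.7 and 789.2 CPM in the E8.25 libraries, against 305.7 and 369.0 CPM in the E7.75 libraries (1.05 ± 0.15, limma adjusted p = 1.1e-04), and Dlk1 had 95.7 and 77.6 CPM in the E8.25 libraries, against 19.7 and 14.9 CPM in the E7.75 libraries (2.18 ± 0.40, limma adjusted p = 0.0012). Impact, a translation regulator, had 47.5 and 61.9 CPM in the E8.25 libraries, against 152.3 and 150.8 CPM in the E7.75 libraries (-1.55 ± 0.30, limma adjusted p = 0.0018). Of 4 MIF and chemokine genes tested, the chemokine Cxcl12 rose, with 36.7 and 46.9 CPM in the E8.25 libraries, against 9.96 and 2.76 CPM in the E7.75 libraries (2.65 ± 0.46, limma adjusted p = 6.3e-04). The cytokine Mif (3366 and 3190 CPM in the E8.25 libraries, against 2975 and 3032 CPM in the E7.75 libraries) and the receptor Cxcr2 (215.7 and 168.7 CPM in the E8.25 libraries, against 326.9 and 237.7 CPM in the E7.75 libraries) were not called, with adjusted p of 0.87 and 0.089. Of 17 immediate early and heat shock genes, which respond to handling as well as to signals, 1 rose (Ier3, 1.72) and 3 fell, against 4 higher and 1 lower with log averaging and 0 and 1 with thinned cells. Fos had 60.9 and 52.2 CPM in the E8.25 libraries, against 112.2 and 114.3 CPM in the E7.75 libraries (-1.08 ± 0.23, limma adjusted p = 0.0042), and Dusp1 (-1.05) and Hspa8 (-0.41) fell too. The call of Fos was lost without E8.25 library 2 (adjusted p = 0.054), and those of Ier3, Hspa8 and Dusp1 without 2 or more libraries (up to 0.28, 0.16 and 0.24).

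**Figure D4:**
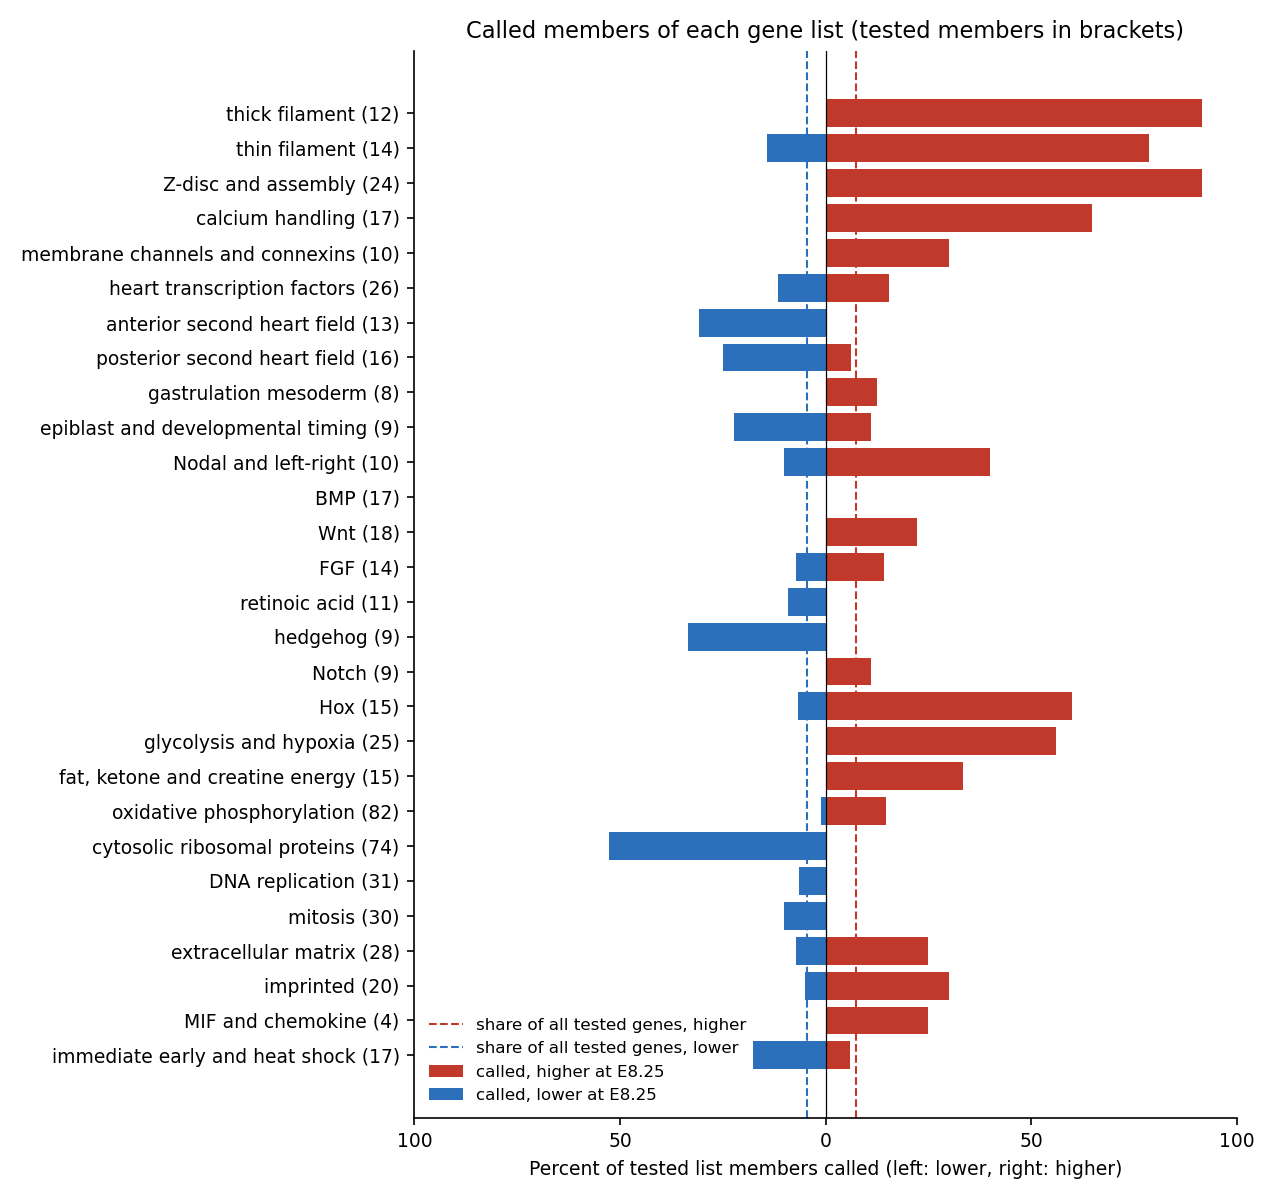
Share of tested genes called in each gene list (horizontal axis, percent), with rises and falls drawn apart and the shares over all genes marked (7.47% and 4.44%). Contractile, calcium and Hox lists have most tested members higher, the Hox count being partly set by the filter on low values. Ribosomal protein genes have 39 of 74 lower.

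The largest rises by the fixed rule were mostly muscle genes, and many of them, such as Des and Ankrd1, are already counted in the lists above. Asb2, a ubiquitin ligase subunit of muscle, had 208.4 and 221.1 CPM in the E8.25 libraries, against 20.03 and 15.6 CPM in the E7.75 libraries (3.44 ± 0.18, limma adjusted p = 1.7e-10), and Des, the muscle intermediate filament, had 256.4 and 300.9 CPM in the E8.25 libraries, against 26.9 and 38.8 CPM in the E7.75 libraries (2.98 ± 0.20, limma adjusted p = 7.2e-09). Ankrd1, a titin-associated stress protein, had 1759 and 1593 CPM in the E8.25 libraries, against 305.4 and 193.5 CPM in the E7.75 libraries (2.69 ± 0.17, limma adjusted p = 2.0e-09). Apobec2 (2.83), Emilin2 (2.96), Crip1 (2.66) and the keratin Krt19 (2.87) completed the set together with Ckb and sarcomere genes given above. The largest falls were of unlike genes. Pan3, a subunit of the poly(A)-shortening complex, had 36.9 and 64.9 CPM in the E8.25 libraries, against 307.0 and 216.7 CPM in the E7.75 libraries (-2.46 ± 0.28, limma adjusted p = 7.4e-06). The imprinted Peg12 had 19.99 and 23.2 CPM in the E8.25 libraries, against 102.6 and 124.2 CPM in the E7.75 libraries (-2.42 ± 0.29, limma adjusted p = 9.0e-06), and Pdcd4, an inhibitor of translation, had 53.3 and 84.4 CPM in the E8.25 libraries, against 240.5 and 344.3 CPM in the E7.75 libraries (-2.17 ± 0.34, limma adjusted p = 2.5e-04). Sall4 and Plk1 were among these 15, with the membrane glycoprotein gene Emb (-1.82), the zinc finger gene Klf13 (-1.75), Cdv3 (-1.78), Rqcd1 (-1.84), Erdr1 (-1.80), the noncoding 2900097C17Rik (-1.75) and the pseudogene Gm1821 (-1.92), whose reads may belong to its parent gene. Igsf9, AA465934 and 9430020K01Rik completed the set, and each lost its call without at least 2 libraries (adjusted p up to 0.15, 0.11 and 0.083).

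Few markers of other cell types were called, where 7.47% of all tested genes rose and 4.44% fell. Of 12 endothelial markers 0 rose and 1 fell (Emcn, -2.04, lost without 3 of the 4 libraries, adjusted p up to 0.41), and they summed to 398.2 and 253.7 CPM at E8.25, against 610.8 and 286.0 CPM at E7.75. Of 11 endoderm markers 1 rose (Krt19), and they summed to 690.7 and 646.8 CPM at E8.25, against 725.0 and 401.2 CPM at E7.75. Neural markers summed to 28.1 and 38.0 CPM at E8.25, against 5.6 and 15.4 CPM at E7.75, with Nes, an intermediate filament gene, the 1 rise of 3 tested, and Sox1, Sox10 and Zic1 were at 0. Smooth muscle markers summed to 600.9 and 492.4 CPM at E8.25, against 172.6 and 222.3 CPM at E7.75, where Tagln (1.34) and Cnn1 (2.00) rose, both also known in early cardiac muscle. Of the surface ectoderm markers Wnt6, the 1 tested, rose, a call lost without E7.75 library 2 (adjusted p = 0.097). Wnt6 was not called with edgeR (adjusted p = 0.075) or DESeq2 (adjusted p = 0.57). It had 63 and 225 summed counts in the E8.25 libraries, against 10 and 1 in the E7.75 libraries, so it could hardly have fallen. With all cells holding 4 endothelial, blood or endoderm markers left out, 878 genes rose and 484 fell, against 797 and 474 with them.

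The same days were compared in Nkx2-5Cre cells, and the difference between the steps was tested in the same fit (Isl1Cre minus Nkx2-5Cre). It was called for 200 genes, 109 positive (1.02%) and 91 negative (0.853%), and the changes of the steps had a Pearson correlation of 0.43 across the 10670 genes, which are not independent replicates. Thick-filament genes had a median change of 2.30 in Isl1Cre cells and 2.15 in Nkx2-5Cre cells, and thin-filament genes 1.66 in Isl1Cre cells and 1.40 in Nkx2-5Cre cells. The Hox median was 2.43 in Isl1Cre and 0.08 in Nkx2-5Cre, and the difference was called for 0 of the 15 genes at the adjusted threshold (Hoxc9 had the value 3.30 ± 0.86, limma adjusted p = 0.057). Some of these genes passed the filter only through the Isl1Cre E8.25 libraries, so the Hox medians are not a like comparison. Myh6 had the larger step in Isl1Cre cells (2.81, against 1.39 in Nkx2-5Cre cells), with a difference of 1.42 ± 0.24, limma adjusted p = 0.0038. It had 912.8 and 1065 CPM in the Nkx2-5Cre E8.25 libraries, against 456.0 and 304.6 CPM in the Nkx2-5Cre E7.75 libraries, so at each stage both Nkx2-5Cre libraries were above both Isl1Cre libraries. The Myh6 difference was not called with edgeR (adjusted p = 0.14) or DESeq2 (adjusted p = 0.092). For Nodal and Lefty2 the steps were opposite in sign. Nodal had 2.67 and 5.61 CPM in the Nkx2-5Cre E8.25 libraries, against 40 and 51.1 CPM in the Nkx2-5Cre E7.75 libraries (difference 5.70 ± 0.78, limma adjusted p = 6.7e-04). Lefty2 had 5.97 and 2.07 CPM in the Nkx2-5Cre E8.25 libraries, against 69.01 and 52.95 CPM in the Nkx2-5Cre E7.75 libraries (difference 6.81 ± 0.84, limma adjusted p = 2.1e-04).

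The largest differences at high level were partly in genes of doubtful identity. Erdr1 fell in Isl1Cre cells, as given above, and had 87.9 and 101.3 CPM in the Nkx2-5Cre E8.25 libraries, against 32.9 and 14.9 CPM in the Nkx2-5Cre E7.75 libraries (difference -3.82 ± 0.37, limma adjusted p = 1.2e-05). The pseudogene Rps15a-ps6 had 1207 and 999.4 CPM in the Isl1Cre E8.25 libraries, against 273.1 and 247.6 CPM in the Isl1Cre E7.75 libraries. It had 236.1 and 241.8 CPM in the Nkx2-5Cre E8.25 libraries, against 768.4 and 619.0 CPM in the Nkx2-5Cre E7.75 libraries (difference 3.53 ± 0.19, limma adjusted p = 2.2e-09). In Isl1Cre cells the sum of this copy and Rps15a, given above, moved far less than the copy. Dlk1 (difference 2.49 ± 0.57, limma adjusted p = 0.03), Rcor2, a corepressor subunit (difference 2.60 ± 0.41, limma adjusted p = 0.0022), and Dcp1b, an mRNA-decapping subunit (difference 2.34 ± 0.36, limma adjusted p = 0.0021), rose in Isl1Cre cells, with changes of 2.18, 1.44 and 3.81, against -0.31, -1.17 and 1.47 in Nkx2-5Cre cells. The Rcor2 rise in Isl1Cre cells lost its call without E8.25 library 1 (adjusted p = 0.0598). The Dlk1 difference was lost without any 1 of the 4 Isl1Cre libraries (adjusted p 0.065 to 0.14), and without Nkx2-5Cre E7.75 library 1 (adjusted p = 0.13) or Nkx2-5Cre E8.25 library 2 (adjusted p = 0.15). For Dusp9, Spink1 and Slc23a1 the difference of 2.98, 2.83 and 2.78 came with no call in Isl1Cre cells and with lower levels at Nkx2-5Cre E8.25 than at Nkx2-5Cre E7.75. The Slc23a1 difference was lost without any 1 of the 4 Isl1Cre libraries (adjusted p 0.089 to 0.10), and without Nkx2-5Cre E7.75 library 2 (adjusted p = 0.13) or Nkx2-5Cre E8.25 library 2 (adjusted p = 0.17). Spink1 had 43.99 and 39.2 CPM in the Nkx2-5Cre E8.25 libraries, against 557.0 and 221.5 CPM in the Nkx2-5Cre E7.75 libraries. Endoderm markers summed to 156.6 and 139.3 CPM at Nkx2-5Cre E8.25, against 1056 and 396.3 CPM at Nkx2-5Cre E7.75, and 6 of the 11 tested had a positive called difference. Their part in the other differences was not tested. Genes that mark sex differed within the Nkx2-5Cre step. Xist, which silences an X chromosome in females, had 49.3 and 96.5 CPM in the Isl1Cre E8.25 libraries, against 86.6 and 103.1 CPM in the Isl1Cre E7.75 libraries. It had 33.9 and 70.7 CPM in the Nkx2-5Cre E8.25 libraries, against 0.356 and 0.669 CPM in the Nkx2-5Cre E7.75 libraries. Eif2s3y, a Y-linked gene, had 0 and 0 CPM in the Isl1Cre E8.25 libraries, against 0.74 and 0 CPM in the Isl1Cre E7.75 libraries. It had 1.33 and 0.349 CPM in the Nkx2-5Cre E8.25 libraries, against 42.5 and 37.7 CPM in the Nkx2-5Cre E7.75 libraries, so the Nkx2-5Cre E7.75 libraries stood apart on both genes. The difference of steps cannot be told apart from sex for genes that differ by sex. The number of called differences was 70 without Isl1Cre E8.25 library 1 and 394 without Nkx2-5Cre E8.25 library 1, the lowest and highest of the 8 left-out libraries. Of 31 named genes with a called difference, 18 lost it without at least 1 of these libraries.

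**Figure D5:**
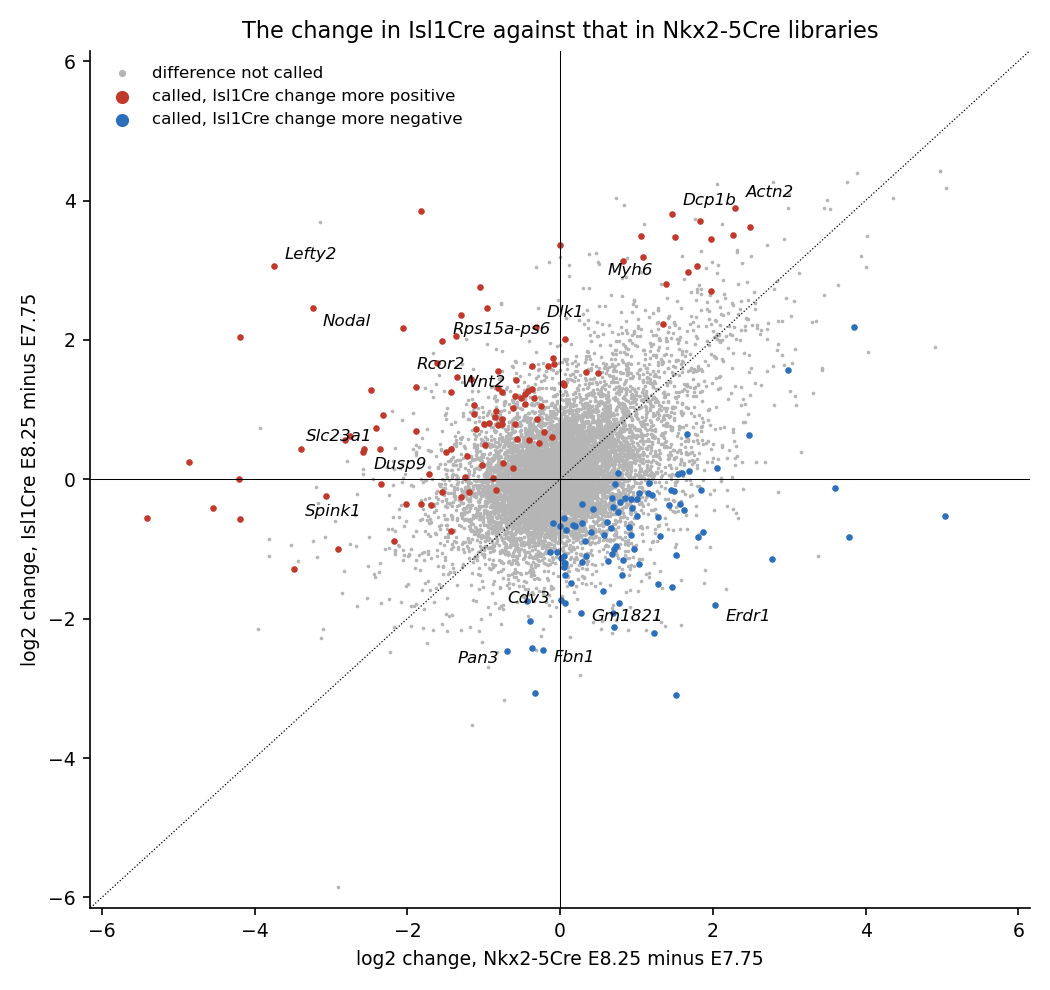
Log2 change from E7.75 to E8.25 in Isl1Cre cells against the same change in Nkx2-5Cre cells for each tested gene, with the 200 genes of called difference in colour. Nodal and Lefty2 lie high in Isl1Cre and below 0 in Nkx2-5Cre, and Erdr1 lies on the opposite side.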

How the data were processed

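The authors deposited CPM, counts scaled to a fixed total, per gene and cell. Per the submitters' processing notes, CASAVA 1.8, TopHat2 2.0.12, HTSeq and mm10 were used, and their settings and the strand rule of counting are not given in the sources used here. Each file held 23154 genes, of which 0 were mitochondrial. Whole counts recovered from the CPM steps (100% of low values up to 20 steps lay within 0.1 step of a whole number) served for thinning and for count tests.

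Cells with at least 1000 genes were averaged per library. Genes with a mean of 5 CPM or more in at least 2 libraries were fitted with limma 3.58.1 (R 4.3.3) on log2(mean CPM + 1), TMM-scaled with edgeR 4.0.16, in 1 fit of 15 libraries and 8 groups (7 residual degrees of freedom) with Benjamini-Hochberg adjusted p at 0.05. This fit was tested on simulated data. With 2 libraries a stage no exact test of single values was run. Alternatives were edgeR's quasi-likelihood test and DESeq2 1.42.0 on summed counts, scaling, pseudocount, filters, thinning, marker cells left out, the replicate block and each library left out. Exact (Clopper-Pearson) 95% intervals used SciPy 1.17.1 and, like floors of 3 counts, cover counting error only. Cells were picked singly and doublets were not sought.

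The cells, the 28 gene lists and 9 marker lists were chosen with earlier results of these data known. Named were the 15 largest rises and 15 largest falls among called genes at a mean log2 level of at least 5 without overlap, up to 4 called genes of each list, a panel of 26 genes, and the 8 largest called differences of steps at that level. Names outside this rule were chosen after their values were seen. Many are other list members given by their change alone, while Ttn, Tpm3, Hoxb6, Xist and Eif2s3y are among those given with their levels. Genes outside the rule are not among the 111 named genes checked under the alternatives. A few genes are counted in their lists but not reported here. Gene coordinates are GENCODE M21 (mm10). Promoter sequences are RefSeq's, build GRCm38.p6, matched by symbol.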

Additional observations from a re-analysis of the deposited data

Results flagged for a closer look

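The difference between the Isl1Cre step and the Nkx2-5Cre step was called for 200 genes, and all values here are Isl1Cre minus Nkx2-5Cre on the log2 scale. Positive values among the named genes were led by the left-right genes, with Lefty2 at 6.81 and Nodal at 5.70. Rps15a-ps6 had 3.53, Dusp9 2.98, Spink1 2.83, Slc23a1 2.78, Rcor2 2.60, Dlk1 2.49 and Dcp1b 2.34. Contractile and other muscle genes had smaller values, with Actn2 at 1.60, Asb2 at 1.47, Myh6 at 1.42, Des at 1.31, Ckb at 1.27, Acta1 at 1.24, Myh7 at 1.14 and Myl3 at 0.72. The Wnt ligands Wnt2 and Wnt5a had 1.79 and 1.69. With DESeq2 and edgeR, Actn2 (0.97 and 1.01), Myh6 (0.78 and 0.82), Myh7 (0.93 and 0.97), Myl3 (0.38 and 0.41) and Wnt5a (1.28 and 1.31) were not called. Without Isl1Cre E7.75 library 1, Acta1 was 0.77 and not called, and with thinned cells Des was 0.66 and Dlk1 1.34, both not called.

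Negative values were led by Erdr1 at -3.82. AA465934 had -2.83, Fbn1 -2.23, Gm1821 -2.20, Peg12 -2.06, Cdv3 -1.85, Pan3 -1.77, Fos -1.76, Plk1 -1.63 and Klf13 -1.32. The ribosomal protein genes Rps15a and Rps13 had -0.67 and -0.54. Rps15a has a near-identical copy, so its value is uncertain. Fbn1 was -0.05 with log averaging, -1.15 with a pseudocount of 10 and -1.22 without marker cells, and was not called in any of these. With log averaging Plk1 was -0.47 and Peg12 -1.05, both not called. Klf13 was -0.84 without Nkx2-5Cre E8.25 library 2 and was not called there. Of the 31 named genes with a called difference, 18 lost it without at least 1 of the 8 libraries of both steps.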

How the results depend on the processing

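There were 2 libraries a stage, with embryo numbers that both libraries of a stage share. Leaving out an Isl1Cre library, which leaves 1 in its stage, changed the number of calls more than the tool did. The tools gave 1104 calls with edgeR and 1491 with DESeq2. Thinning and log averaging changed the number more still. The 1271 calls of the step numbered 537 (396 higher and 141 lower) with cells thinned to 5000 counts, and 2444 (2153 higher and 291 lower) with cells averaged on the log scale. Without a filter on low values 305 genes were lower, against 474. Leaving out 1 of the 8 libraries of both steps gave 644 to 1350 calls, 463 to 818 higher and 178 to 532 lower, and the 4 Isl1Cre libraries gave 644 to 745 of these. The difference of steps was called for 470 genes with DESeq2, 51 with thinned cells, 3188 with log averaging, 121 without the filter and 70 to 394 without 1 library, against 200. The causes were not tested.

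Of 111 named genes called, 102 could be fitted under all 19 alternatives, and 62 of these were called under each. The other 9 fell below the filter in 1 to 3 alternatives. Where fitted, 0 of the 111 changed sign. The calls lost were 36 of 109 with thinned cells, 22 without the filter, 17 with edgeR and 16 with DESeq2. Genes not called in limma changed sign in places. Log averaging gave Gata4 0.92, Hand2 0.73, Kdr 0.06, Spink1 1.03 and Tbx1 0.09, and thinning gave Hcn4 0.84 and Tbx1 0.22. With 1 library of the 4 left out, Fgf10 ranged over -0.80 to 0.07, Hand2 over -0.41 to 0.06, Spink1 over -0.65 to 0.19 and Tbx5 over -0.01 to 0.38. Without marker cells Spink1 was 0.66 and Tbx5 -0.07. Mif was -0.10 with DESeq2 and -0.08 with edgeR.

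Libraries of different stages share replicate numbers but their deviations correlated by 0.056 in Isl1Cre and -0.00074 in Nkx2-5Cre, so the numbers were not taken as pairs. With the replicate block, 809 genes were higher and 499 lower.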

Other observations

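Some genes with large changes lay outside the lists and the naming rule, and were chosen after their values were seen. Trh, the precursor of thyrotropin-releasing hormone, had 1.35 and 0 CPM in the E8.25 libraries, against 96.5 and 72.9 CPM in the E7.75 libraries (log2 change -5.85, limma adjusted p = 6.0e-07). Cck, the precursor of the peptide cholecystokinin, had 130.8 and 122.9 CPM in the E8.25 libraries, against 5.37 and 4.24 CPM in the E7.75 libraries (4.39, limma adjusted p = 2.6e-11). Each of these peptide genes was high at 1 stage and near the bottom of the scale at the other.

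Pitx1, a homeodomain factor of the hindlimb and posterior mesoderm, had 19.9 and 23.4 CPM in the E8.25 libraries, against 1.28 and 0 CPM in the E7.75 libraries (3.85, limma adjusted p = 8.3e-04), and this change was not called with DESeq2 or with thinned cells. Its difference from the Nkx2-5Cre step was 5.67 (limma adjusted p = 0.0041).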
